A study of Mus musculus with 14 samples.

Results

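The genes of the lysosome itself were followed through the entry of mouse embryonic stem (ES) cells into a dormancy-like state, which was induced by inhibition of the kinase mTOR (mTORi). They comprised every gene named Atp6v or Atp6ap, which covers most subunits and accessory proteins of the vacuolar ATPase (V-ATPase), together with 33 listed lysosomal genes. This gave 59 genes of the 54446 gene identifiers measured. Subunit and assembly genes with other names, among them Tcirg1 and Rnasek, lie outside this set and are counted apart at the end. There were 26 V-ATPase names, 22 hydrolases, 3 soluble non-enzymes and 8 membrane proteins. Atp6v1fnb was caught by its name and is a gene next to Atp6v1f, not a subunit. Of the 59 genes, 49 averaged 1 TPM or more over all libraries (TPM states a transcript's share of its library, corrected for length) and were tested, of which 18 were V-ATPase names and 20 were hydrolases. The genes below this level were Atp6v1b1, Atp6v1c2, Atp6v1e2, Atp6v1fnb, Atp6v1g2, Atp6v1g3, Atp6v0d2, Atp6ap1l, Ctsh and Naglu. Atp6v1g3 and Atp6v0d2, isoforms that are known from kidney and osteoclasts, were listed at 0 in every library.

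Bulk RNA-seq covered 14 libraries of E14 ES cells, grown without feeder cells in serum and LIF, in 7 groups of 2 replicates. Wild-type (WT) cells were taken untreated (0 h) and after 24, 72 and 144 h with the mTOR inhibitor Ink128, and Tet1/2 double-knockout (DKO) cells were taken untreated and after 24 and 72 h. The DKO line was made in E14 cells with Cas9 guides placed at an early and a late exon of each gene, and clones were grown from sorted single cells, so that the clone and the genotype cannot be told apart. RNA came from an equal number of sorted cells per sample, was spiked with ERCC standards and was depleted of ribosomal RNA. In the DKO libraries Tet2 was at 15.9 to 22.2 TPM against 95.96 to 143 TPM in WT, and Tet1 at 147 to 248 TPM against 191 to 349 TPM, and a TPM of the whole gene does not show which exons the reads came from. The 5 ES cell markers summed to 2016 to 2629 TPM in all libraries, and 5 of 6 macrophage markers as well as 5 of 6 fibroblast markers stayed under 1 TPM in each of them.

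Lysosomes degrade macromolecules with acid hydrolases, and the V-ATPase supplies the acid: its cytosolic V1 sector splits ATP and its membrane-bound V0 sector carries the protons. The lysosomal surface is also the place where mTORC1 senses amino acids. Active mTORC1 keeps the transcription factors TFEB and TFE3 out of the nucleus, and these factors bind an E-box-like element in front of many lysosomal genes, known as the CLEAR element.

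To show where such letters stand, the RefSeq promoter windows of build GRCm38.p6 were searched, which reach from 250 bases before to 50 bases after the start of transcription. A window was on hand for 48 of the 59 genes, and none for Asah1, Atp6ap1l, Atp6v0a2, Atp6v0d2, Atp6v1b2, Atp6v1c1, Atp6v1g1, Atp6v1h, Ctsb, Ctsh and Npc1. The E-box core CACGTG, which reads the same on both strands and lies inside the longer forms, was in 18 of the 48 genes (37.5%), against 8.09% of the 27025 symbols with a window. The 8 letters TCACGTGA were in 9 of the 48 genes (18.8%), against 1.12% of all symbols. The full CLEAR element, which is longer than these 8 letters and contains them, was in 1 of the 48 genes, Cln3 (2.08%), against 0.37% of all symbols. Most matches to the shorter letters are therefore not the full element. All symbols include genes that were not tested here. Of all tested genes with a window, 1216 held CACGTG and 8836 did not, beside 17 and 24 of the lysosomal genes. For TCACGTGA the numbers were 219 and 9833, beside 9 and 32. These matches describe the letters of the windows and are not evidence of binding. The stretches below are the 100 bases before the start for 4 genes that were called higher at every WT time (Ctsa, Mcoln1, Glb1, Atp6v0b), for Lamp1 with the largest number of copies, and for Lgmn, which was lower in DKO than in WT cells at 24 h. Capitals mark CACGTG, or TCACGTGA where its outer letters are present.
Ctsa, chr2:164833673-164833772, plus strand: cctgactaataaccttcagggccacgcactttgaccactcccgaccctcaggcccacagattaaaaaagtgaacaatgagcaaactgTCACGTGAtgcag
Mcoln1, chr8:3500419-3500518, plus strand: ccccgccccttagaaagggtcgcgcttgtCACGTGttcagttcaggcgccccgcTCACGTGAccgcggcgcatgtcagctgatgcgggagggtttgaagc
Glb1, chr9:114400978-114401077, plus strand: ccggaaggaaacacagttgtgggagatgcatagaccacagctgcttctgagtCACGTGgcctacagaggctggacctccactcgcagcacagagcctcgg
Atp6v0b, chr4:117887330-117887429, minus strand: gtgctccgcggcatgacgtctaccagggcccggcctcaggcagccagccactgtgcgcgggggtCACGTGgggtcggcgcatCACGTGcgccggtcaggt
Lamp1, chr8:13159061-13159160, plus strand: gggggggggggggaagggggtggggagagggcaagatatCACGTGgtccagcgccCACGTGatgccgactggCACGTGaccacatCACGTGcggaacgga
Lgmn, chr12:102439093-102439192, minus strand: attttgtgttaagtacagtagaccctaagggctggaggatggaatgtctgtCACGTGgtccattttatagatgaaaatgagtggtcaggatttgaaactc

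The same letters also stood in the promoter windows of subunit genes that were called lower, and shorter stretches around them are shown for Atp6v1a and Atp6v0e for that reason.
Atp6v1a, chr16:44139368-44139407, minus strand: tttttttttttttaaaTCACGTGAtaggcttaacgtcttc
Atp6v0e, chr17:26676382-26676421, plus strand: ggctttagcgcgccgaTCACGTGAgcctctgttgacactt
In Ctsa the first copy began 12 bases before the start and a second began 5 bases after it, where the RefSeq start lies inside the span that the files' annotation gives the gene. Mcoln1 held copies that began 71 and 45 bases before the start, Glb1 48, Atp6v0b 36 and 18, and Lgmn 49. The 4 copies of Lamp1 began 61, 45, 28 and 15 bases before it. In Atp6v1a the copy began 131 bases before the start, and in Atp6v0e it began 3 bases after it. Grn, Lamp2, Tpp1 and Hexa had a window without CACGTG.

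The comparison of WT cells at 24 h with 0 h asks how the lysosomal genes responded to the first day of mTORi. In TPM, 27 of the 49 tested genes were higher and 3 were lower, where 17.6% and 15.7% of all 15878 genes were called in these directions (limma on log2(TPM + 1), adjusted p under 0.05). With the libraries scaled to the ERCC standards, which follows the amount of RNA per cell, 3 of 53 tested lysosomal genes were higher (Ctsa, Grn, Hexa) and 2 were lower (Atp6v0e, Gusb), beside 1.25% and 8.73% of all genes. With the replicate number added as a block within the genotype these counts were 11 and 3, beside 4.48% and 25.7%. WT replicates had scaling factors, relative to 0 h, of 0.68 and 0.88 (24 h), 0.78 and 0.71 (72 h), 0.51 and 0.47 (144 h). Relative to the same WT libraries, DKO replicates had 1.33 and 1.125 (0 h), 1.06 and 0.64 (24 h), 1.20 and 0.82 (72 h). How far this scatter between replicates lowered the number of calls with spike-in scaling was not tested. With this scaling the median of all genes moved to a log2 fold change of −0.33 after both 24 and 72 h and −0.83 after 144 h in WT, and of −0.49 and −0.12 after 24 and 72 h in DKO, so every direction given below in TPM is relative to the rest of the transcriptome. The median of the lysosomal genes at 24 h was 0.43 in TPM, against −0.0012 for all genes, and 0.09 with spike-in scaling.

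**Figure D1:**
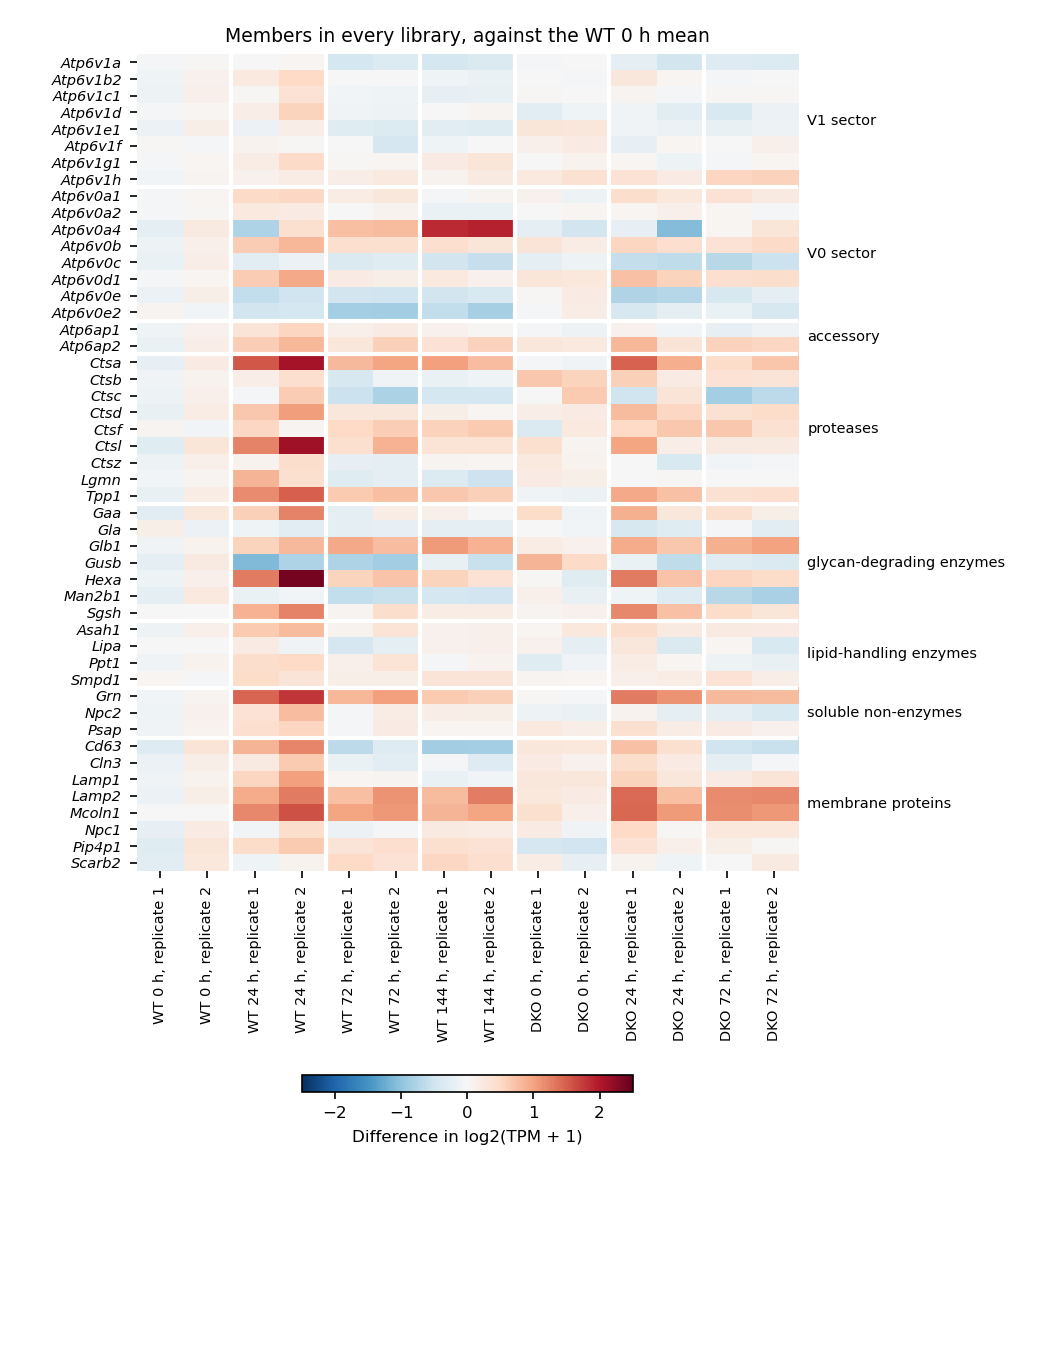
Each row is a tested lysosomal gene and each column a library, and the colour is the difference in log2(TPM + 1) from the mean of the 2 WT libraries at 0 h. The WT 24 h columns hold the strongest red among proteases and glycan-degrading enzymes, replicate 2 more than replicate 1, while most V1 rows stay pale.

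The hydrolases had a larger median change than the pump. Of 20 hydrolases, 12 were higher and 1 was lower at 24 h, with a median log2 fold change of 0.54. Of 18 V-ATPase genes, 7 were higher and 2 were lower, with a median of 0.21. With spike-in scaling these medians were 0.29 for the hydrolases and −0.15 for the V-ATPase, so the order of the classes was the same on both scales while the sign of the V-ATPase median turned. The difference between the classes was not tested. The summed level of the hydrolases went from 440 and 559 TPM to 839 and 1141 TPM in the WT replicates, and that of the V-ATPase names went from 884 and 1005 TPM to 1024 and 1175 TPM.

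Hexa, the alpha subunit of beta-hexosaminidase, had the largest rise. It was at 10.95 and 13.4 TPM at 0 h and at 31.4 and 68.0 TPM at 24 h. The groups did not overlap, but replicate 2 at 24 h stood far above replicate 1. The log2 fold change was 1.85 ± 0.30 (SE) in TPM with an adjusted p of 0.00142 in limma, and 1.52 with spike-in scaling.

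Ctsa encodes cathepsin A, a carboxypeptidase that also protects beta-galactosidase and neuraminidase. It went from 17.1 and 23.3 TPM to 60.7 and 87.3 TPM, a log2 fold change of 1.82 ± 0.22 (adjusted p = 0.000295, limma). Grn, the precursor of the granulins, went from 30.2 and 33.4 TPM to 88.8 and 111 TPM, a log2 fold change of 1.62 ± 0.12. In both genes all 24 h libraries lay well above the 0 h libraries, and both were also called with spike-in scaling, at 1.47 and 1.26. Ctsl, the cysteine protease cathepsin L, was at 57.0 and 88.3 TPM and then at 170 and 313 TPM, with a log2 fold change of 1.69 ± 0.33. Among the other proteases Tpp1, Ctsd and Lgmn were higher by 1.33, 0.86 and 0.62, while Ctsb, Ctsc, Ctsf and Ctsz were not called.

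Among the enzymes that cut glycans, Sgsh (heparan sulfate), Gaa (glycogen) and Glb1 (beta-galactosidase) rose by log2 fold changes of 1.05, 0.91 and 0.68. Sgsh was low, at 0.660 and 0.654 TPM and then 2.03 and 2.902 TPM, and the scale of log2(TPM + 1) understates the change of such a gene. Gusb, beta-glucuronidase, fell from 9.64 and 13.4 TPM to 4.77 and 6.29 TPM, a log2 fold change of −0.93 ± 0.22 (adjusted p = 0.00835, limma). Its 24 h libraries lay below both 0 h libraries, and the fall was −1.33 with spike-in scaling, also called. Gla and Man2b1 were at −0.19 and −0.12 and were not called. Of the 4 lipid-handling enzymes, Asah1, Ppt1 and Smpd1 were higher by 0.72, 0.46 and 0.39, and Lipa, the acid lipase, was at 0.06.

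Of the 8 membrane proteins, 5 were higher and 0 were lower, with a median of 0.66. Mcoln1, the calcium-release channel TRPML1, was higher by 1.40, Lamp2 by 1.11, the tetraspanin Cd63 by 1.03, Lamp1 by 0.78 and Pip4p1, a lipid phosphatase listed in other annotations as Tmem55b, by 0.55. The cholesterol exporter Npc1 (0.19), the receptor Scarb2 (−0.01) and Cln3 (0.45) were not called. The soluble partner of Npc1, Npc2, and the saposin precursor Psap were higher by 0.57 and 0.48.

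Within the V-ATPase the change was uneven. In V0, Atp6v0d1, Atp6v0b and Atp6v0a1 were higher by 0.79, 0.73 and 0.50, whereas Atp6v0e and Atp6v0e2, isoforms of the small e subunit, were lower. Atp6v0e went from 63.0 and 76.7 TPM to 44.9 and 49.1 TPM, a log2 fold change of −0.56 ± 0.11 (adjusted p = 0.00348, limma), with no overlap, and was at −0.93 with spike-in scaling. In V1 only Atp6v1b2 (0.37) and Atp6v1g1 (0.33) of the 8 tested genes were called, and the catalytic subunit Atp6v1a was at 0.02. Both tested accessory proteins, Atp6ap2 and Atp6ap1, were higher, by 0.72 and 0.43. With spike-in scaling none of the rises among V-ATPase genes was called, and Atp6v1b2 and Atp6v1g1 were below 0 there.

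Replicate 2 of the WT 24 h group stood apart from replicate 1 and held the highest value of all 14 libraries for 28 of the 49 tested genes. Without it, 17 genes were higher and 2 were lower, beside 11.5% and 9.59% of all genes, the median over the lysosomal genes was 0.36, and the medians of the hydrolases and the V-ATPase were 0.53 and 0.14. The number of V-ATPase genes called higher was 3 without it, 3 without WT 0 h replicate 1 and 9 without WT 24 h replicate 1, in place of 7, where 11.5%, 11.6% and 12.8% of all genes were higher. Markers of primitive endoderm, the extraembryonic lineage that lines the blastocyst cavity, moved with the same time point. Their 9 genes (Gata4, Gata6, Sox17, Sox7, Foxa2, Dab2, Lama1, Cubn and Amn) summed to 54.3 to 114 TPM at 0 h, to 420 to 453 TPM at 24 h, to 49.8 to 98.7 TPM at 72 h and to 37.6 to 44.4 TPM at 144 h in WT, and 7 of the 9 were called higher at 24 h. In DKO they summed to 42.8 to 97.3 TPM at 0 h, 107 to 155 TPM at 24 h and 47.4 to 60.4 TPM at 72 h, and 1 of the 9 was called at 24 h. At 24 h in WT, 6 trophectoderm markers summed to 44.1 and 132 TPM, against 31.4 and 32.6 TPM at 0 h, and at 24 h in DKO to 25.7 and 65.8 TPM against 21.7 and 41.3 TPM. The part of such cells in the 24 h levels of the lysosomal genes was not tested, and in bulk samples a change in the number of cells of a type and a change in RNA per cell cannot be told apart.

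**Figure D2:**
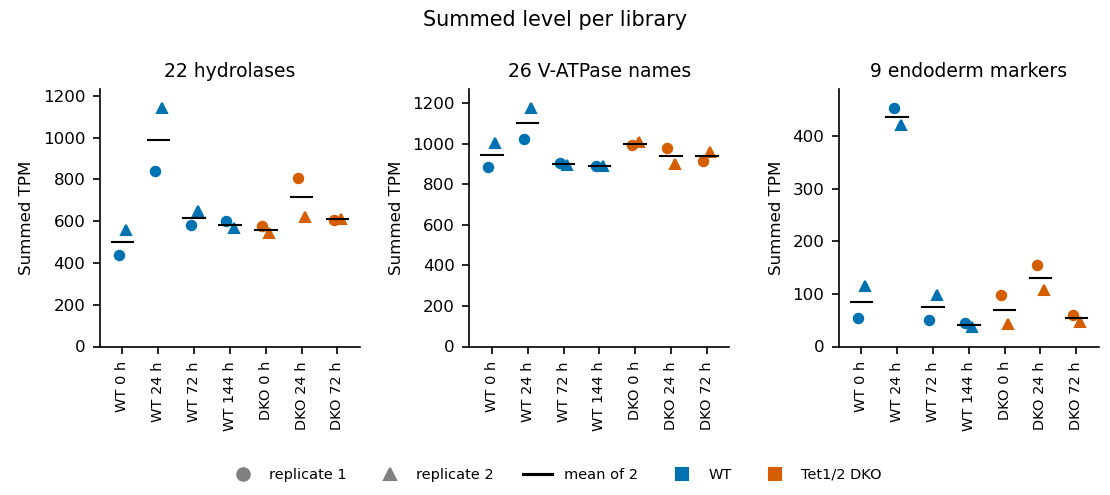
Summed TPM per library is shown for the 22 hydrolases, the 26 V-ATPase names and the 9 primitive endoderm markers, with points for the 2 replicates of each group. The hydrolases and the endoderm markers both stand highest at 24 h in WT (839 and 1141 TPM, and 420 to 453 TPM), whereas the V-ATPase sum stays between 884 and 1175 TPM throughout.

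The later WT times ask which of these levels were held. At 72 h against 0 h, 7 of the 49 genes were higher and 6 were lower, where the shares of all genes were 14.4% and 12.8%, and at 144 h 9 were higher and 6 were lower, against 17.4% and 12.7%. The median of the lysosomal genes was 0.07 at both times, against 0.04 and 0.06 for all genes. With spike-in scaling 0 genes were higher and 1 was lower at 72 h (Atp6v0e2, where 0.697% and 7.6% of all genes were called), and 0 were higher and 30 of 53 were lower at 144 h, where 50.5% of all genes were called lower. At 144 h the medians with spike-in scaling were −0.79 for the hydrolases and −0.96 for the V-ATPase, beside −0.83 for all genes. In TPM, 3 of 20 hydrolases were higher and 2 lower at 72 h, and 4 were higher and 1 lower at 144 h. Of 18 V-ATPase genes, 1 was higher and 4 were lower at 72 h, and 2 were higher and 4 were lower at 144 h. With spike-in scaling and the replicate block, 1 lysosomal gene was higher and 13 were lower at 72 h, beside 2.85% and 25.4% of all genes, and 1 was higher and 38 were lower at 144 h, beside 1.05% and 66.3%.

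The balance of directions at these times turned with the untreated libraries, and that of all genes moved the same way. In TPM and without WT 0 h replicate 1, 4 lysosomal genes were higher and 8 were lower at 72 h (7.7% and 9.42% of all genes), and 4 were higher and 7 were lower at 144 h (9.45% and 9.48%). Without WT 0 h replicate 2, 9 were higher and 1 was lower at 72 h (10.7% and 7.09%), and 10 were higher and 3 were lower at 144 h (13.7% and 6.9%). The treated libraries also bore on the counts, which were 4 higher and 2 lower at 72 h without WT 72 h replicate 2 (7.02% and 6.2%), and 5 higher and 2 lower at 144 h without WT 144 h replicate 1 (10.6% and 6.59%). With each library centred on its median, 7 were higher and 8 were lower at 144 h, beside 13.6% and 16.4% of all genes.

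The decline from the 24 h level was measured directly. Between 24 and 72 h in WT, 15 of the 49 genes fell and 0 rose, against 6.49% and 6.13% of all genes, and 12 of the 15 were genes that had been called higher at 24 h. They comprised 8 hydrolases, 3 membrane proteins, 2 V-ATPase genes (Atp6v0d1 and Atp6v1a) and 2 soluble proteins (Grn and Psap). Since the 24 h libraries serve in both comparisons, a gene that is high in them is placed towards both calls. Without WT 24 h replicate 2, 3 genes fell and 1 rose (2.05% and 1.37% of all genes), and the number that fell was 3 without WT 72 h replicate 1 (1.42%) and 8 without WT 72 h replicate 2 (3.38%). It was 24 with the replicate number as a block within the genotype, where 9.89% of all genes fell. With spike-in scaling 1 gene fell, Cd63, beside 0.559% of all genes lower and 0.428% higher, and with the block added 9 fell and 0 rose, beside 3.4% and 3.2%.

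Cd63 had the largest of these falls. It was at 38.7 and 60.7 TPM at 0 h, 87.6 and 114 TPM at 24 h, 30.3 and 38.4 TPM at 72 h and 26.03 and 26.6 TPM at 144 h. Both 24 h libraries lay above all others in WT, and both 144 h libraries lay below them. From 24 to 72 h the log2 fold change was −1.52 ± 0.20 (adjusted p = 0.00279, limma) in TPM and −1.59 with spike-in scaling, both called. At 144 h against 0 h it was −0.86 ± 0.20 in TPM and −1.87 with spike-in scaling, again called on both. Lgmn, the asparaginyl endopeptidase, had the same course in TPM, with 0.62 at 24 h and −0.43 at 144 h, both called. Between 72 and 144 h, 0 of the 49 genes were called in either direction by limma, with 0.283% of all genes higher and 0.145% lower, and 3 genes had an unadjusted p under 0.05, beside 1719 of 15878 genes (0 called and 16 of 53 unadjusted with spike-in scaling, beside 3482 of 18232). With the replicate block added to spike-in scaling, 18 genes were lower and 0 were higher, beside 18.5% and 0.121% of all genes.

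At all 3 WT times, 7 genes were higher in TPM: the hydrolases Ctsa, Glb1 and Tpp1, the soluble Grn, the membrane proteins Lamp2 and Mcoln1, and the V0 subunit Atp6v0b. Of all genes, 7.53% were higher and 6.12% were lower at all 3 times, and 2 lysosomal genes, Atp6v0e and Atp6v0e2, were lower. All but Atp6v0b were also higher at both DKO times. The times of a genotype share their 0 h libraries, so these calls are not independent of each other. Glb1, the enzyme whose activity is used as a stain for senescent cells, was at 31.3 and 35.6 TPM at 0 h, 49.5 and 59.2 TPM at 24 h, 65.6 and 57.5 TPM at 72 h and 70.9 and 61.9 TPM at 144 h. Its log2 fold change at 144 h was 0.97 ± 0.13 (adjusted p = 0.00065, limma) in TPM and −0.04 with spike-in scaling, so that the direction turned with the scale. Of the 7 genes, only Lamp2 was above 0 with spike-in scaling at 144 h, at 0.06, and none was called higher there.

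Lamp2, the membrane protein of chaperone-mediated autophagy, was at 11.3 and 13.9 TPM at 0 h, 24.7 and 32.1 TPM at 24 h, 21.9 and 28.5 TPM at 72 h and 22.4 and 31.7 TPM at 144 h. Its treated libraries all lay above the untreated ones, with a log2 fold change of 1.03 ± 0.23 at 144 h (adjusted p = 0.00859, limma). Mcoln1 went from 14.9 and 15.3 TPM at 0 h to 36.2 and 47.6 TPM at 24 h, 30.8 and 33.3 TPM at 72 h and 27.96 and 30.7 TPM at 144 h, and was the largest rise at 72 h (1.03 ± 0.15 in TPM, and 0.64 with spike-in scaling). With spike-in scaling the adjusted p of Mcoln1 at 72 h was 0.26, and 0.0444 with the replicate block added (limma). The levels at 72 and 144 h of both genes lay between those at 0 and 24 h or inside the 24 h range.

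Tpp1, a tripeptidyl peptidase, followed the pattern of Ctsa and Grn, with a high at 24 h and lower but called levels later. Tpp1 was at 15.2 and 20.1 TPM at 0 h, 40.7 and 51.3 TPM at 24 h, 27.99 and 30.1 TPM at 72 h and 28.6 and 27.1 TPM at 144 h. Ctsa was at 35.5 and 40.7 TPM at 72 h and 41.7 and 34.7 TPM at 144 h, and Grn at 57.3 and 65.7 TPM and at 50.6 and 48.6 TPM. At 144 h the log2 fold changes of Ctsa, Tpp1 and Grn were 0.90, 0.64 and 0.63 in TPM, all called, and −0.10, −0.35 and −0.38 with spike-in scaling, none called. Hexa, the largest rise at 24 h, was at 18.2 and 15.9 TPM at 144 h and was not called there (0.45).

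**Figure D3:**
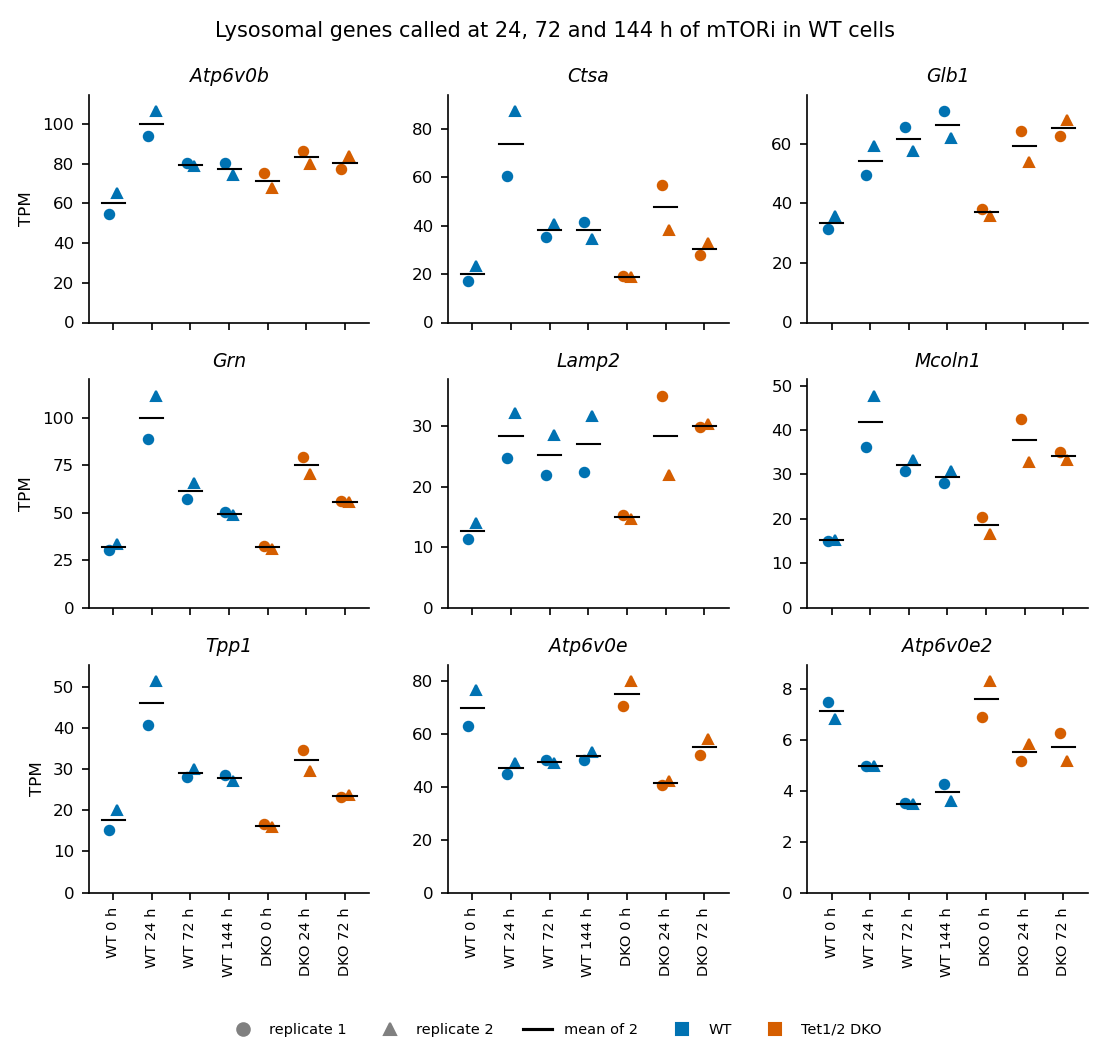
TPM per library is shown by hours of mTORi for the 7 lysosomal genes called higher at every WT time and for Atp6v0e and Atp6v0e2, called lower at every WT time, with WT and DKO points apart. Most rising genes peak at 24 h in WT, while Glb1 is at 57.5 to 70.9 TPM at 72 and 144 h, above its 24 h level of 49.5 and 59.2 TPM except in 1 library.

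Among the subunits of the pump, more genes were lower than higher at the later times, although without WT 0 h replicate 2 the counts were 1 higher and 1 lower at 72 h and 2 higher and 3 lower at 144 h. Of the 7 V-ATPase genes that were higher at 24 h, 1 (Atp6v0b) was called higher at 72 h and at 144 h in TPM without a replicate block. With the block within the genotype Atp6ap2 was also called higher at both times, Atp6v0a1 was called higher at 72 h (0.24, adjusted p = 0.0432, limma), and Atp6v1e1, a stalk subunit, was called lower at both (−0.32 and −0.29), so that 3 V-ATPase genes were higher and 5 were lower at each time. Under this block 18.8% of all genes were higher and 16.7% were lower at 72 h, and 22% and 16.7% at 144 h. Atp6v0b, the c'' subunit of the proton-carrying ring, was at 54.8 and 65.1 TPM at 0 h, 93.8 and 106 TPM at 24 h, 80.3 and 78.8 TPM at 72 h and 80.1 and 74.3 TPM at 144 h. Its treated libraries lay above the untreated ones, and it was at 0.36 at 144 h in TPM. With spike-in scaling it was at −0.65 there, not called without the replicate block (adjusted p = 0.076) and called lower with it (adjusted p = 0.0141, limma), so that its direction turned with the scale. Lower at both 72 and 144 h were Atp6v0c, Atp6v0e, Atp6v0e2 and the catalytic Atp6v1a, and with spike-in scaling the directions were the same. Atp6v0c, the ring's c subunit, can share reads with the pseudogene Atp6v0c-ps2, which had a mean of 101 TPM, and its level is uncertain for that reason.

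Atp6v0e2 went from 7.47 and 6.80 TPM at 0 h to 4.95 and 4.97 TPM at 24 h, 3.51 and 3.48 TPM at 72 h and 4.27 and 3.58 TPM at 144 h. All treated libraries lay below the untreated ones. The log2 fold change at 72 h was −0.85 ± 0.14 (adjusted p = 0.00208, limma) in TPM and −1.31 with spike-in scaling. Atp6v1a was at 62.8 and 66.0 TPM at 0 h, 64.3 and 66.4 TPM at 24 h, 47.4 and 50.4 TPM at 72 h and 47.4 and 49.6 TPM at 144 h, so that it was level on the first day and lower afterwards. Its log2 fold change at 144 h was −0.40 ± 0.09 (adjusted p = 0.00764, limma) in TPM and −1.42 with spike-in scaling.

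Atp6v0a4, the a4 isoform of the V0 a subunit that is known from the kidney, was the largest rise at 144 h. It was at 1.37 and 2.28 TPM at 0 h, 0.634 and 2.66 TPM at 24 h, 3.68 and 3.79 TPM at 72 h and 9.17 and 9.64 TPM at 144 h. The 144 h libraries lay above every other library, DKO included (0.317 to 2.43 TPM). The log2 fold change was 1.90 ± 0.37 (adjusted p = 0.00418, limma) in TPM, and 1.17 with spike-in scaling, where it was not called (adjusted p = 0.051, limma) unless the replicate block was added (adjusted p = 0.00788). The gene overlaps D630045J12Rik on the same strand (mean of 2.52 TPM). The widely expressed isoform Atp6v0a1 was at 15.2 and 16.1 TPM at 0 h and at 15.2 and 16.6 TPM at 144 h.

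In each subgroup of the lysosomal genes 1 had the smallest difference at 144 h in TPM. Besides Atp6v0a1 these were Atp6v1d (25.1 and 27.1 TPM against 26.2 and 27.6 TPM), Atp6ap1 (27.3 and 32.1 TPM against 32.0 and 30.4 TPM), Ctsz (29.8 and 36.1 TPM against 34.3 and 34.0 TPM) and Gaa (19.0 and 27.7 TPM against 25.3 and 23.2 TPM). Likewise Ppt1 was at 17.4 and 19.6 TPM against 18.1 and 19.6 TPM, Psap at 99.1 and 111 TPM against 109 and 108 TPM, and Lamp1, the most abundant of the lysosomal messages, at 194 and 220 TPM against 183 and 196 TPM. In each of these 8 genes the groups overlapped. With spike-in scaling all 8 were at log2 fold changes of −0.92 to −1.15, and all but Gaa were called lower there (Gaa too with the replicate block added). Atp6ap2, the prorenin receptor and the most changed accessory gene, was at 0.46 and Smpd1, acid sphingomyelinase, at 0.32, neither called in TPM. With the replicate number as a block within the genotype Atp6ap2 was called higher in TPM (adjusted p = 0.0143, limma) and lower with spike-in scaling (−0.53, adjusted p = 0.0467).

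**Figure D4:**
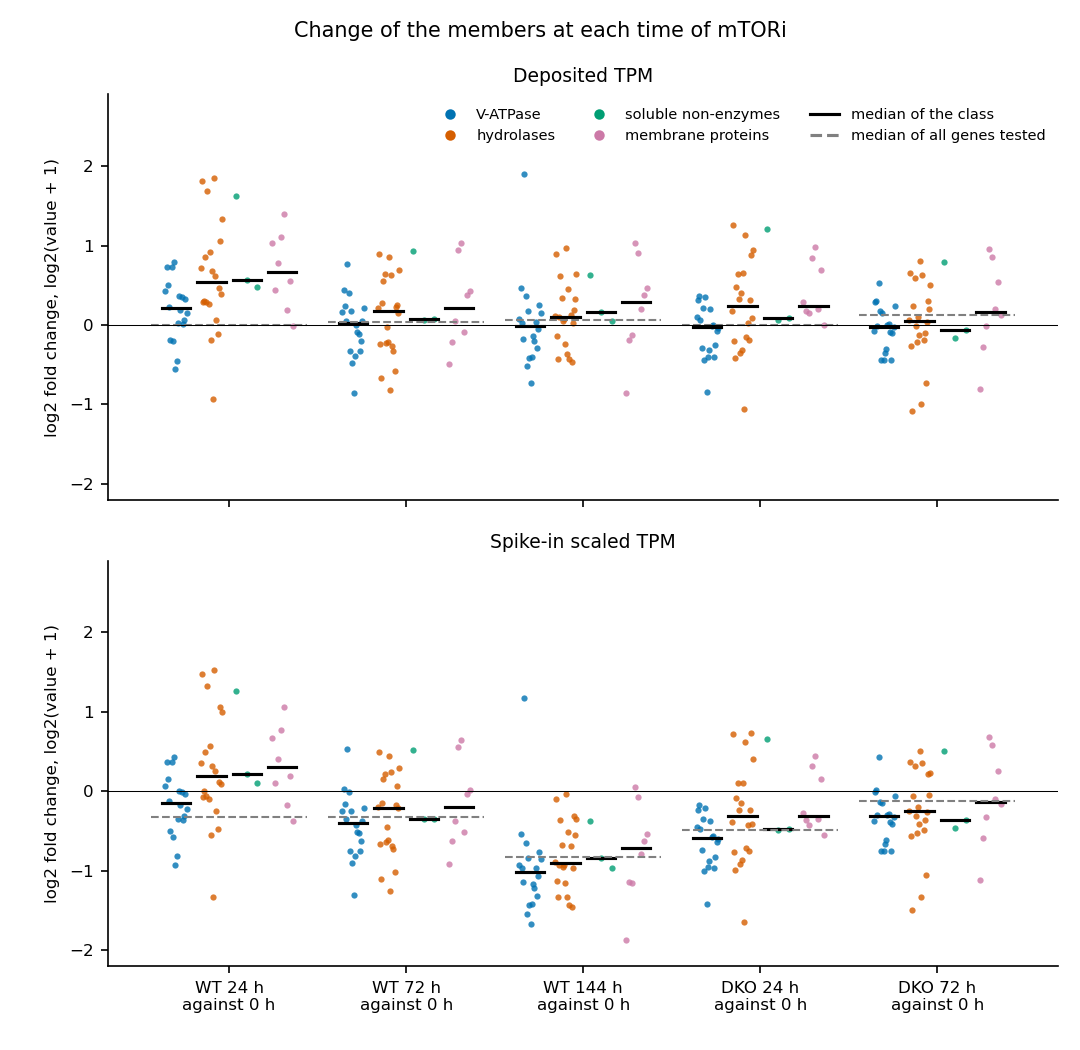
Each point is the log2 fold change of a lysosomal gene in 5 comparisons with 0 h, by class, in deposited TPM above and with spike-in scaling below, with the class median in black and the median of all genes as a dashed grey line. In WT at 24 h the hydrolase median (0.54) stands above the V-ATPase median (0.21) and the all-gene line, and at 144 h with spike-in scaling both classes lie near the all-gene median of −0.83.

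DKO cells were followed to 72 h to ask whether the response depends on TET enzymes. At 24 h against 0 h, 13 of the 49 genes were higher and 5 were lower in DKO, where 13.2% and 15.1% of all genes were called, and at 72 h 7 were higher and 8 were lower, against 18.8% and 10.2%. The medians were 0.10 and 0.0032, against 0.0028 and 0.13 for all genes. Without DKO 24 h replicate 1, 5 genes were higher and 5 were lower at 24 h, with a median of 0.0067, beside 8.5% and 11% of all genes. The counts were 13 and 2 without DKO 24 h replicate 2 (12.3% and 12.4%), 8 and 3 without DKO 0 h replicate 1 (8.43% and 12%), and 6 and 2 without DKO 0 h replicate 2 (8.33% and 8.7%). With each library centred on its median, 11 were higher and 7 were lower at 24 h, beside 11.3% and 17.2% of all genes, and 4 were higher and 10 were lower at 72 h, beside 11.2% and 16.3%. With spike-in scaling 0 were higher and 6 of 53 were lower at 24 h (0.505% and 18.7% of all genes), and 0 were higher and 1, Ctsc, was lower at 72 h (0.713% and 2.95%). With the replicate block added to spike-in scaling, 2 were higher and 15 were lower at 24 h, beside 1.95% and 38.1% of all genes, and 0 were higher and 7 were lower at 72 h, beside 5.34% and 13.2%. By class, 7 of 20 hydrolases were higher and 1 was lower at 24 h, beside 2 higher and 4 lower of 18 V-ATPase genes. The class counts moved with single libraries. Without DKO 24 h replicate 1 the hydrolase and V-ATPase medians at 24 h were 0.0833 and −0.1097. They were 0.1967 and −0.0965 without DKO 0 h replicate 1, and 0.1512 and 0.0003 without DKO 0 h replicate 2. At 72 h, 3 hydrolases were higher and 3 were lower, and 0 V-ATPase genes were higher and 4 were lower. These calls also moved with single libraries. The V-ATPase median at 72 h was −0.0351 without DKO 0 h replicate 1 and 0.0031 without DKO 0 h replicate 2, beside 0.1287 and 0.1228 for all genes. With the replicate number as a block within the genotype, Atp6v0a1 (0.30), Atp6v1h (0.24) and Ctsf (0.59) were also called higher at 72 h, so that 2 V-ATPase genes were higher, beside 24.8% of all genes. Of the 13 genes called higher at 24 h in DKO, 12 were also called in WT, and Ctsf was the other.

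Ctsa was at 19.3 and 18.7 TPM at 0 h, 56.9 and 38.5 TPM at 24 h and 27.9 and 33.1 TPM at 72 h in DKO. The log2 fold change at 24 h was 1.26 ± 0.22 (adjusted p = 0.00256, limma) in TPM and 0.72 with spike-in scaling, where the adjusted p was 0.17, and 0.0421 with the replicate block added. Grn was at 32.6 and 31.1 TPM, 79.5 and 70.6 TPM and 56.3 and 55.5 TPM at these times, with 1.21 ± 0.12 in TPM and 0.66 with spike-in scaling at 24 h, where the adjusted p was 0.147, and 0.0257 with the replicate block added (limma). In both genes the order of the times was that of WT, with the high at 24 h. Lamp2 (15.3 and 14.6 TPM, then 34.9 and 21.9 TPM, then 29.8 and 30.3 TPM) and Mcoln1 (20.4 and 16.6 TPM, then 42.5 and 32.8 TPM, then 35.0 and 33.1 TPM) were the largest rises at 72 h, at 0.96 and 0.86 in TPM. With spike-in scaling they were at 0.69 and 0.57 and were not called.

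Gusb fell in DKO as in WT, from 21.2 and 16.3 TPM at 0 h to 10.1 and 6.995 TPM at 24 h and 9.09 and 8.60 TPM at 72 h. At 24 h the log2 fold change was −1.06 ± 0.22 (adjusted p = 0.00544, limma) in TPM and −1.64, also called, with spike-in scaling. In WT it was at 6.28 and 5.74 TPM at 72 h, again below the 0 h libraries, and at 9.88 and 7.46 TPM at 144 h, where it was not called in TPM and was called lower with spike-in scaling (−1.34, adjusted p = 0.0103, limma). Atp6v0e went from 70.7 and 80.0 TPM to 40.8 and 42.3 TPM and then to 52.1 and 58.2 TPM in DKO, with −0.84 ± 0.11 at 24 h in TPM and −1.41 with spike-in scaling, both called. Ctsc, the aminopeptidase that activates granule proteases, was at 4.72 and 7.90 TPM at 0 h, 3.03 and 6.05 TPM at 24 h and 2.16 and 2.59 TPM at 72 h. It had the largest fall at 72 h in DKO (−1.08 ± 0.30, adjusted p = 0.0246, limma, and −1.50 with spike-in scaling). Lower at both DKO times were Atp6v0c, Atp6v0e, Atp6v1a, Atp6v1e1 and Gusb. Between 24 and 72 h in DKO, 1 of 49 genes was lower, Cd63 at −1.08 in TPM, and 0 were higher (1.79% and 5.18% of all genes). With the replicate number as a block within the genotype these counts were 4 and 1, beside 3.55% and 10.9% of all genes, and with spike-in scaling both were 0, beside 0.0932% of all genes lower and 1.32% higher. With both together 1 was lower and 2 were higher, beside 0.878% and 12.7%.

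The genotypes were then compared at each time. At 0 h, 0 of the 49 genes differed by limma, where 0.579% of all genes were higher and 0.233% were lower in DKO, and 7 of 49 had an unadjusted p under 0.05 beside 2358 of 15878 genes. At 24 h, 1 gene, Lgmn, was lower in DKO and 0 were higher (0.989% and 0.756% of all genes), and 19 of 49 had an unadjusted p under 0.05 beside 2538 of 15878. At 72 h, 1 gene, Atp6v0e2, was higher and 0 were lower (4.14% and 1.07%). With spike-in scaling 0 lysosomal genes differed at each of the times, and 2, 1 and 8 of 53 had an unadjusted p under 0.05 in time order, beside 1523, 755 and 4193 of 18232 genes. Of all genes 0.0274% were then higher and 0.0165% lower in untreated DKO cells. The shares were 0.011% higher and 0.0329% lower after 24 h of mTORi, and 0.302% higher and 0.0274% lower after 72 h. At 24 h the values leaned to one side without passing the test: 41 of 49 genes were below 0 in DKO against WT, beside 7595 of 15878 genes, and in 24 genes both DKO libraries lay below both WT libraries, where this held for 19.5% of all genes.

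Lgmn was at 63.9 and 46.7 TPM in WT and at 35.4 and 36.1 TPM in DKO at 24 h. The groups did not overlap and the WT replicates were far apart. The log2 fold change was −0.60 ± 0.13 (adjusted p = 0.0491, limma) in TPM, and −0.51 and not called with spike-in scaling. At 0 h Lgmn was at 33.6 and 36.8 TPM in WT and 40.7 and 39.3 TPM in DKO. Atp6v0e2 was at 3.51 and 3.48 TPM in WT and at 6.27 and 5.16 TPM in DKO at 72 h, a log2 fold change of 0.57 ± 0.14 (adjusted p = 0.0449, limma) in TPM, and 0.997 and not called with spike-in scaling. In DKO this gene was at 6.90 and 8.29 TPM at 0 h and was not called at either mTORi time in TPM (−0.40 and −0.36). With spike-in scaling and the replicate block it was called lower there after 24 h (−0.96, adjusted p = 0.00568, limma). The difference of the responses was itself not called (0.50 at 72 h). The Lgmn call was lost without WT 24 h replicate 1 or either DKO 24 h library, and the Atp6v0e2 call without any 1 of the 4 libraries compared. Both calls were also lost with the replicate block across all libraries, and without the filter on low values. With median centring neither gene was called (adjusted p = 0.053 for Lgmn and 0.128 for Atp6v0e2, limma), and 2 other genes were lower in DKO at each of these times, beside 1.04% of all genes at 24 h and 1.53% at 72 h.

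The difference between the responses of DKO and WT was tested as an interaction. By limma 0 of 49 genes were called at 24 h and 0 at 72 h, as 0% of all genes were, and 15 of 49 and 1 of 49 had an unadjusted p under 0.05, beside 620 and 577 of 15878 genes. The median difference at 24 h was −0.33 in TPM (all genes −0.02), with 44 of 49 genes below 0, beside 8548 of 15878, and −0.53 with spike-in scaling (all genes −0.19), where 0 lysosomal genes and 0.00548% of all genes were called. It was −0.39 for the hydrolases and −0.30 for the V-ATPase, both below 0. Without WT 24 h replicate 2 the median was −0.22, with 9 of 49 genes above 0. The largest difference was that of Ctsl, at 170 and 313 TPM in WT and 141 and 79.3 TPM in DKO at 24 h, with −1.35 ± 0.47 and an adjusted p of 0.999 in limma. At 72 h the median difference was −0.06 in TPM and 0.06 with spike-in scaling. The primitive endoderm markers had a median difference of −1.41 at 24 h, in the same direction, and their part in these values was not tested.

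To set the E-box letters shown above beside the responses, the tested genes with a promoter window were split by CACGTG. At 24 h in WT, 12 of the 17 lysosomal genes with the letters were higher, with a median log2 fold change of 0.73 in TPM, and 12 of the 24 without them, with a median of 0.37. Among all tested genes with a window, 25.5% of the 1216 with the letters and 20.2% of the 8836 without them were higher. At 24 h in DKO the medians of the lysosomal genes were 0.36 and 0.04, with 8 of 17 and 5 of 24 higher, and at 144 h in WT they were 0.18 and 0.05, with 5 and 4 higher. These are descriptions, and the difference between genes with and without the letters was not tested. For the longer TCACGTGA, 5 of 9 lysosomal genes with it and 19 of 32 without it were higher at 24 h in WT, beside 32.4% of 219 and 20.6% of 9833 of all tested genes. At 24 h in DKO 5 of 9 genes with it and 8 of 32 without it were higher, with medians of 0.36 and 0.095, beside 24.7% and 15.2% of all. Genes with the letters went in both directions: Ctsa, Mcoln1, Glb1 and Atp6v0b were higher at every WT time, while Atp6v0e was lower at every WT time and Atp6v1a at 72 and 144 h. Hexa, Grn, Tpp1 and Lamp2 were among the largest rises without the letters in the window.

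**Figure D5:**
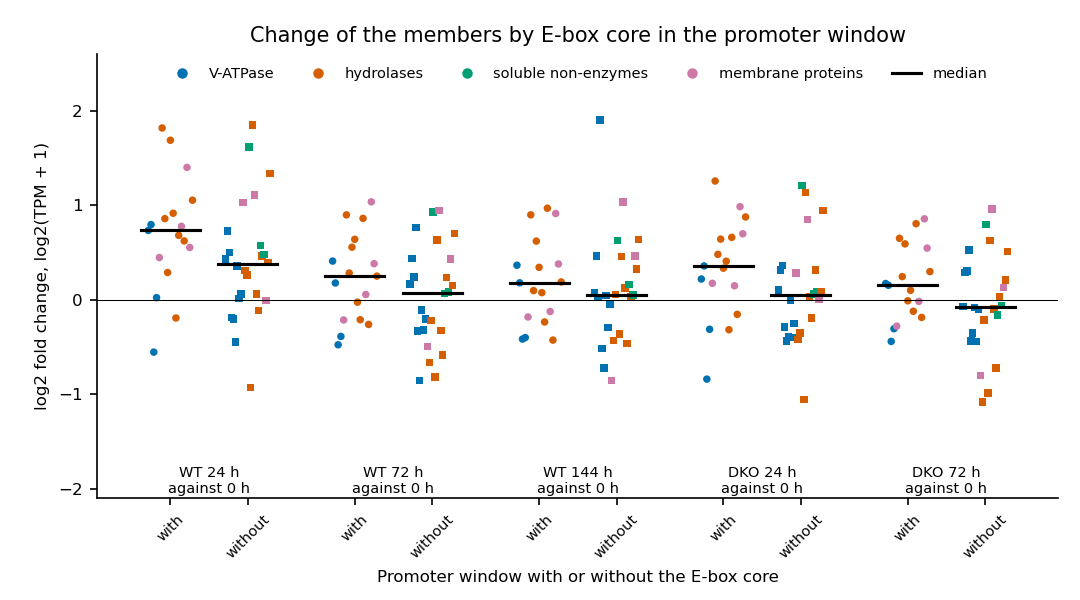
Log2 fold changes in deposited TPM of the tested lysosomal genes are shown for those with (17) and without (24) CACGTG in the promoter window. In WT at 24 h the medians are 0.73 and 0.37, and genes of both kinds lie on either side of 0.

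Several of the named genes overlap a neighbour. Reads of the opposite strand could be shared between Ctsa and Pltp (35.5 TPM), Lamp1 and Grtp1 (32.5 TPM), Ctsz and Nelfcd (41.9 TPM), Ppt1 and Cap1 (115 TPM) and Pip4p1 and Apex1 (104 TPM), since the strand setting of the counting is not given in the sources used here. Glb1 overlaps Tmppe on the same strand (20.2 TPM). In mm10, Hexa lies at chr9:59539540-59565109, Ctsa at chr2:164832873-164841032, Grn at chr11:102430315-102437048, Glb1 at chr9:114401076-114474898, Mcoln1 at chr8:3500457-3515232 and Atp6v0e at chr17:26676396-26699644, all on the plus strand, and Atp6v0b at chr4:117884326-117887333 and Atp6v0a4 at chr6:38048483-38124586 on the minus strand.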

How the data were processed

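RNA was sequenced from 14 libraries of E14 cells, 2 replicates in each of 7 groups, as assigned by the sample labels. The authors deposited TPM per gene, made per their processing notes with cutadapt 2.4, STAR 2.7.3a and StringTie 2.0 on mm10, and the values of each library sum to 1000000, so that read depth is unknown and no counting interval can be given. The 10 gene identifiers with several entries were summed.

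Genes that averaged 1 TPM or more over the libraries (15878 of 38890 above 0) were tested as log2(TPM + 1) in limma 3.58.1 (R 4.3.3) with all 7 groups in one fit, an intensity trend and Benjamini-Hochberg adjustment within each comparison, at an adjusted p of 0.05. Fold changes are on this scale and understate the change of low genes. The study's DESeq2 needs counts, which TPM are not. The files list no ERCC entries, so spike-in scaling used 1 factor per library, the median ratio of spike-in-normalised values in the study's supplement to the deposited TPM. Except in untreated WT cells, the factors differed between the replicates of a group, and the effect of this on the counts with spike-in scaling was not tested. The labels number the replicates, and the study describes its experiments as independently repeated.

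The replicate numbers pair samples within a genotype, since the study states that the time points of a replicate were handled in parallel. Counts given without a named block come from the fit of the groups alone, which leaves this pairing out. Same-numbered libraries deviated together in WT (r of 0.068 to 0.461, 5 of 6 pairs over 0.1) and DKO (0.247 to 0.405). Between genotypes they mostly deviated in opposite directions, with r below 0 in 10 of 12 pairs (−0.553 to 0.144).

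The members and gene lists were chosen with earlier results of these data known. Each library is given for the 2 largest called, non-overlapping changes and the smallest change per subgroup at 144 h, the 2 largest rises and falls in the other time comparisons, and each gene called between genotypes. Alternatives were spike-in scaling, median centring, a pseudocount of 0.1, no filter, the replicate block, and leaving out each library. Spike-in scaling with the block, and the steps between mTORi times, were added after seeing the data. Promoter windows are RefSeq's, of GRCm38.p6. The test was also run on simulated data with independent noise for each gene. These held no replicate pairing, no discordant library and no scatter of spike-in factors, so the run does not cover them. Python 3.11.15, pandas 2.3.3, numpy 2.4.6 and matplotlib 3.10.9 were used.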

Additional observations from a re-analysis of the deposited data

How the results depend on the processing

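With spike-in scaling the lysosomal genes called were 5 in place of 30 at 24 h in WT, 1 in place of 13 at 72 h, 30 in place of 15 at 144 h, 6 in place of 18 at 24 h in DKO and 1 in place of 15 at 72 h. Between genotypes they were 0 in place of 1 at 24 h and at 72 h, from 24 to 72 h 1 in place of 15 in WT, and 0 in place of 1 in DKO. With spike-in scaling and the replicate block within genotype they were 14 at 24 h, 14 at 72 h and 39 at 144 h in WT, 17 at 24 h and 7 at 72 h in DKO, 9 from 24 to 72 h in WT, 3 in DKO, and 18 in place of 0 from 72 to 144 h.

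With deposited TPM and the replicate block within genotype, the pairing gave 24 genes in place of 15 from 24 to 72 h in WT and 5 in place of 1 in DKO, and among the genes named at 144 h Atp6ap2 became called. Of the other results fitted with this block, 34 gene values stayed on their side of the threshold. With the block across all libraries the counts were 0 between genotypes at 24 and 72 h, and 2 from 24 to 72 h in DKO. Median centring gave 2 and 2 between genotypes at 24 and 72 h, without Lgmn or Atp6v0e2, and 4 from 24 to 72 h in DKO. Without the filter the counts were 11 at 24 h in DKO, 0 and 0 between genotypes at 24 and 72 h, and 7 from 24 to 72 h in WT. A pseudocount of 0.1 kept the named gene values in direction and call.

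At 144 h against 0 h in WT, spike-in scaling, with or without the block, turned the direction of Atp6v0b (−0.65), Atp6v1d (−0.96), Atp6v0a1 (−0.97), Atp6ap2 (−0.53), Atp6ap1 (−0.93), Ctsa (−0.0953), Tpp1 (−0.35), Ctsz (−0.95), Glb1 (−0.0397), Gaa (−0.92), Smpd1 (−0.55), Ppt1 (−0.96), Grn (−0.38), Psap (−0.97) and Mcoln1 (−0.0709). Median centring turned Atp6v1d (−0.045), Atp6v0a1 (−0.0659), Ctsz (−0.0299), Gaa (−0.0123), Ppt1 (−0.0558), Psap (−0.0371) and Atp6ap1 (−0.0138). Leaving out 1 library gave −0.0134 to 0.0959 for Atp6v1d, −0.0363 to 0.0769 for Atp6v0a1, −0.0406 to 0.1854 for Atp6ap1, −0.0777 to 0.1903 for Ctsz, −0.1875 to 0.3353 for Gaa, −0.0496 to 0.1105 for Ppt1 and −0.0323 to 0.1306 for Psap, below 0 for all 7 without WT 0 h replicate 1 and for Atp6v0a1 and Ppt1 also without WT 144 h replicate 2. These 7 genes were not called in deposited TPM.

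Leaving out 1 library at a time, with the lone sample taken to vary like the other groups, gave 19 to 29 genes at 24 h, 6 to 12 at 72 h and 7 to 13 at 144 h in WT, 8 to 15 at 24 h and 5 to 8 at 72 h in DKO, 3 to 19 from 24 to 72 h in WT and 0 to 1 in DKO. Between genotypes it gave 0 at 0 h, 0 to 1 at 24 h and 0 at 72 h, and it gave 0 for the differences of responses and from 72 to 144 h. The counts fell by over 1.5 times without WT 24 h replicate 2 (19 at 24 h), WT 72 h replicate 2 (6 at 72 h), WT 144 h replicate 1 or 2 (7 and 8), DKO 0 h replicate 1 or 2 (11 and 8 at 24 h, 8 and 6 at 72 h), DKO 24 h replicate 1 (10) and DKO 72 h replicate 1 or 2 (5 each). The Cd63 call from 24 to 72 h in DKO was lost without DKO 24 h replicate 1 or either DKO 72 h library. The cause of these changes was not tested. With 2 replicates a group and no read depth, small differences could not be resolved.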

Other observations

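Lysosomal genes outside the 59, from lists chosen with earlier results known, are given for WT in TPM. Of all genes, 17.6% were called higher and 15.7% lower after 24 h, 14.4% and 12.8% after 72 h, and 17.4% and 12.7% after 144 h. Of 22 tested other lysosomal enzymes, the calls in the 2 directions were 9 up and 2 down after 24 h, 3 each way after 72 h, and 4 up with 0 down after 144 h. Dpp7, a lysosomal dipeptidyl peptidase, was called higher after 24 h, at 1.20 on the log2 scale (0.88 with spike-in scaling). Of 14 tested other lysosomal membrane proteins, the 3 mTORi times had 7, 6 and 5 higher and 0 lower. Among them were the sialic acid exporter Slc17a5 (1.18 at 24 h) and the cystine exporter Ctns (1.16 at 24 h). Of 11 other V-ATPase subunit and assembly genes, 0 were higher and 1, Tmem199, was lower at 24 h (−0.34), and 0 were called at 72 and 144 h. Of 6 genes for enzyme sorting, 2 were higher and 0 were lower after 24 h, with a median of 0.05. These were the mannose 6-phosphate receptor Igf2r, at 1.21, and Gnptg, which takes part in tagging enzymes for that receptor, at 1.09 (0.86 and 0.78 with spike-in scaling), and M6pr, Sumf1, Gnptab and Sort1 were not called.

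The transcription factor genes Tfeb and Tfe3 were not called higher at any WT time. Tfeb was at 24.9 and 21.3 TPM at 0 h, 18.9 and 23.5 TPM at 24 h, 12.5 and 11.7 TPM at 72 h and 15.3 and 13.1 TPM at 144 h in WT. It was lower at 72 h by a log2 fold change of −0.87 (adjusted p = 0.00245, limma) and at 144 h by −0.66 (adjusted p = 0.00846, limma), and was not called at 24 h. With spike-in scaling it was at −1.31 after 72 h and −1.66 after 144 h. Tfe3 was not called at 24 h (−0.09) or at 144 h (0.21), and Tfec was below the filter. Cd68, a lysosomal membrane protein that also marks macrophages, was at 6.80 to 23.6 TPM over all libraries. It was on the macrophage list and not on the list of membrane proteins above, and it was called lower in WT after 24, 72 and 144 h (−1.18, −1.22 and −1.12) and in DKO after 24 and 72 h (−1.07 and −1.04), with the same direction under spike-in scaling.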
